A study of Mus musculus with 20 samples.

Results

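Kidney expression of 9 vasoactive genes was followed across Control mice and mice given immune complexes with or without sparsentan: the prostaglandin enzymes Ptgs1, Ptgs2, Ptges and Ptgds, the nitric oxide synthase Nos1, the natriuretic peptide receptors Npr1 and Npr3, tissue kallikrein Klk1 and the kinin receptor Bdkrb2. They were taken by symbol, as vasoactive and macula densa signals that act beside the receptors of angiotensin II and endothelin. All 9 were among the 15780 genes of the count tables, and all 9 were among the 13990 genes with enough counts to be tested. None of the 9 differed between groups at an adjusted p under 0.05 in any of 7 comparisons. Ren1 (renin), whose release several of these signals are classically held to drive, was higher in both sparsentan groups than in Control. Whether these signals had a part in that was not tested.

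The study asked how a dual receptor blocker alters the kidney response to IgA1-containing immune complexes. All 20 mice were female NCr nude sp/sp homozygotes, a strain that lacks T cells, bought at 7 weeks of age. Control mice received PBS into the tail vein and vehicle by gavage. EIC mice received 6 intravenous injections, every other day, of engineered immune complexes of human galactose-deficient IgA1 (0.2 mg) and a recombinant human IgG against it (0.1 mg), with vehicle by gavage. EIC + S60 and EIC + S120 mice received the same injections and daily gavage with sparsentan, which blocks the type A receptor of endothelin and the type 1 receptor of angiotensin II, at 60 or 120 mg/kg for 11 days. There were 5 mice per group, and kidney was taken on day 12 for sequencing of poly(A) RNA. The complexes are human proteins in an immunodeficient mouse, and the RNA is of kidney tissue rather than of isolated glomeruli or macula densa cells. In such bulk samples fewer cells of a type and less RNA per cell cannot be told apart.

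The 9 genes are protein-coding in the GENCODE annotation of GRCm38. On chromosome 2 are Ptgds at chr2:25466709-25470046, Ptges at chr2:30889471-30929863 (both on the minus strand) and Ptgs1 at chr2:36230426-36252272 (plus strand). Ptgs2 is at chr1:150100031-150108227, Nos1 at chr5:117781032-117958840, Klk1 at chr7:44225360-44229618 and Bdkrb2 at chr12:105563226-105595237, all on the plus strand, and Npr1 at chr3:90450591-90465866 and Npr3 at chr15:11839896-11907287 are on the minus strand. Ptgs1, Nos1, Npr1 and Npr3 each overlap an annotated gene on the other strand, and since the strand setting of the counting is not given in the sources used here, reads of the 2 strands cannot be told apart there.

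Cyclooxygenases turn arachidonic acid into prostaglandin H2, from which terminal synthases make prostaglandin E2, prostaglandin D2 and related lipids. In the macula densa, the tubular plaque that senses salt delivery to the glomerulus, cyclooxygenase-2 and neuronal nitric oxide synthase are the classical sources of the signals that tell neighbouring juxtaglomerular cells to release renin. Natriuretic peptides act in the kidney through a receptor that makes cGMP, and kallikrein releases kinins that act on the B2 receptor; both systems favour vasodilation and salt loss and so oppose angiotensin II and endothelin.

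The libraries held 12662345 to 38651781 counts, and values are given as CPM, counts scaled to library size by TMM. Of the 15780 listed genes, EIC mouse 65 had 0 without counts, against 234 to 654 in the other libraries. A gene without reads in that mouse could thus be missing from the list, which was not tested. Shares of all genes are shares of the tested genes on this list. All listed markers of podocytes, endothelium, proximal tubule and thick ascending limb were above 0 in every library, which fits the kidney label. Control mouse 653 stood apart. Its summed CPM of 7 markers of the kidney medulla was 1648, against 302 to 511 in the other Control mice, and its sums for urothelium (38.4) and fat (301) were also the highest of the 20 mice. EIC + S120 mouse 77 had the highest medulla sum of its group, 873 against 290 to 471 in the other 4 mice. Many of the values that moved when either mouse was left out, but not all, are given with and without it. Of 10 macrophage and monocyte markers, 6 were higher in EIC than in Control at an adjusted p under 0.05 by edgeR, against 1.61% of all genes.

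In EIC vs. Control, 0 of the 9 genes passed an adjusted p under 0.05 by edgeR's quasi-likelihood test, against 2.97% of all genes tested. At an unadjusted p under 0.05 there were 2, Ptgs2 and Ptges, both lower in EIC, against 16.8% of all genes. Without Control 653 and EIC + S120 77 there was none. The count of 0 was the same by DESeq2 and by limma-voom, each also with 2 genes at an unadjusted p under 0.05. Log2 fold changes (LFCs, first group over second) were below 0 for 8 of the 9 genes, against 52.4% of all genes, with a median of −0.11 against −0.01 over all genes. Among these, Klk1, Bdkrb2 and Nos1 lay between −0.05 and −0.03. They and Ptgs1 changed sign in at least 1 fit with 1 library left out. The LFCs in the text are those of edgeR, and SEs and 95% intervals are of limma-trend on the same libraries, so an interval need not be centred on its LFC.

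**Figure D1:**
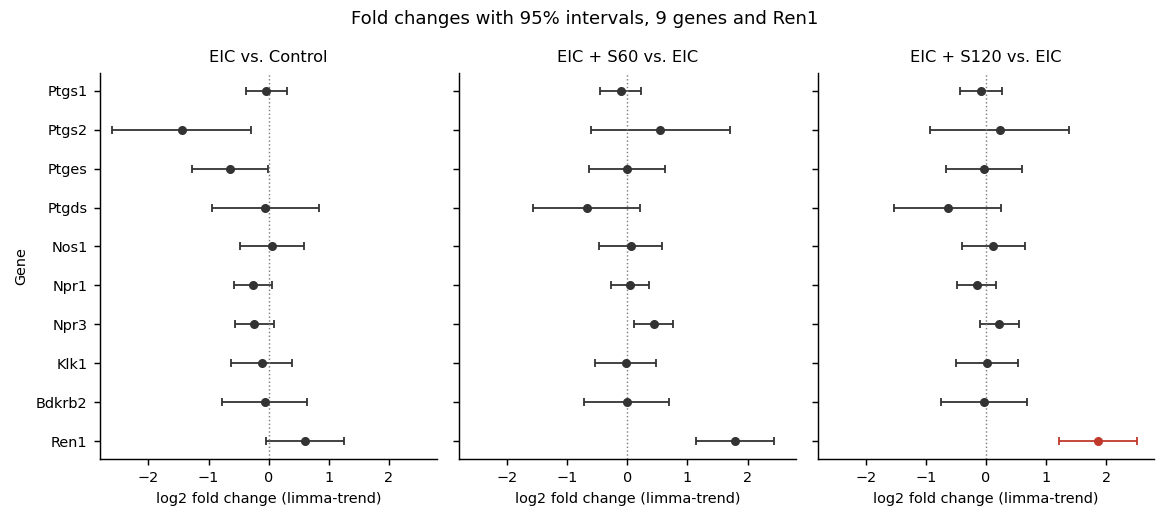
Log2 fold changes of the 9 genes and Ren1 (x axis, limma-trend, log2 scale) in EIC vs. Control, EIC + S60 vs. EIC and EIC + S120 vs. EIC, 5 mice per group. Points are estimates, bars are 95% intervals, and red marks an adjusted p under 0.05 by edgeR. Ren1 in EIC + S120 vs. EIC is the only red point, a call that 7 of 20 fits with 1 library left out did not give, and the widest intervals are those of Ptgs2, the gene with the second lowest counts.

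Against EIC, sparsentan left 0 of the 9 genes past the threshold at either dose. The share of all genes past it was 0% at 60 mg/kg and 0.0572% at 120 mg/kg, so few genes of any kind were called there. At an unadjusted p under 0.05 edgeR gave 1 member at 60 mg/kg (Npr3, higher) and none at 120 mg/kg, against 6.05% and 8.45% of all genes. Without Control 653 and EIC + S120 77 there were 3 at 120 mg/kg (Ptgs1, Ptgds and Npr1, all lower, adjusted p of 0.297 to 0.344 by edgeR), and with a medulla marker sum as covariate there was 1 (Ptgds). DESeq2 and limma-voom called 0 members in both. With both sparsentan groups pooled against EIC the count was again 0 of 9, beside 0% of all genes, with Npr3 at an unadjusted p under 0.05 beside 7.22% of all genes, and without those 2 mice Ptgs1 and Ptgds joined it. The 2 doses set against each other gave 0 of 9 called and none at an unadjusted p under 0.05, against 0.0643% and 8.08% of all genes, and without those mice Npr1 was at an unadjusted p under 0.05 (LFC −0.33, adjusted p = 0.328 by edgeR).

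Against Control, 0 of 9 genes passed in EIC + S60, where 1.29% of all genes did, and 0 of 9 in EIC + S120, where 5.55% did. At an unadjusted p under 0.05 there was 1 gene (Ptges) in the former and 2 (Ptges and Npr1) in the latter, against 12.7% and 20% of all genes, and all were lower than in Control. Without Control 653 and EIC + S120 77 the counts were 0 and 3 (Ptgs2, Ptges and Npr1). These comparisons share the Control libraries with EIC vs. Control, so their LFCs are not independent of it. In no comparison did the values of any of the 9 genes separate the groups completely. Of all genes, the groups were separated for 4.01% in EIC vs. Control, 0.886% and 1.2% at 60 and 120 mg/kg against EIC, 3.82% and 5.82% at these doses against Control, 1.66% between the doses and 0.129% for the pooled sparsentan groups against EIC.

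The direction of the LFCs was mixed in the comparisons with EIC. They were below 0 for 4 of 9 genes at 60 mg/kg, 5 of 9 at 120 mg/kg and 5 of 9 for the pooled groups, where 50.6%, 49.5% and 50.2% of all genes were. Against Control 7 of 9 were below 0 at each dose, where 52.7% and 53.2% of all genes were, and between the doses 4 of 9 were, against 49.8%. Some signs against Control changed in at least 1 fit with 1 library left out. Among the LFCs below 0 these were Ptgs1 and Bdkrb2 at 60 mg/kg, and Ptgs1, Npr3 and Klk1 at 120 mg/kg. The median LFC of the 9 genes was 0.01 at 60 mg/kg and −0.03 at 120 mg/kg against EIC.

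Cyclooxygenase-2, encoded by Ptgs2, is the inducible enzyme and is found in the macula densa. Counts of kidney tissue do not show which cells its reads came from. In Control mice 651 to 655 Ptgs2 was at 1.16, 1.03, 3.73, 1.16 and 1.62 CPM. In EIC mice 65 to 69 it was at 0.724, 0.407, 0.171, 1.81 and 0.263 CPM. Thus 4 of 5 EIC mice lay below every Control mouse, and EIC 68 lay above all Control mice but 653. These are small numbers of reads, between 2 and 60 per library, and 14 of the 20 libraries reached 10. The LFC was −1.33 (SE 0.55, 95% interval −2.60 to −0.29), with an unadjusted p of 0.0407 and an adjusted p of 0.270 by edgeR. Without Control 653 the LFC was −0.85 (adjusted p = 0.518 by edgeR), and without EIC 68 it was −2.07 (adjusted p = 0.104 by edgeR).

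With sparsentan, Ptgs2 was at 1.31, 1.04, 0.582, 0.493 and 0.708 CPM in EIC + S60 mice 71 to 75. In EIC + S120 mice 77 to 81 it was at 2.37, 0.715, 0.367, 0.126 and 0.715 CPM. The treated groups overlapped EIC over most of their range, and mouse 77 was the highest of the treated mice. The LFC against EIC was 0.28 at 60 mg/kg (95% interval −0.61 to 1.70) and 0.36 at 120 mg/kg (−0.93 to 1.38), intervals whose upper ends are a 3.25-fold and a 2.61-fold rise. Without mouse 77 the latter LFC was −0.47. Without EIC 68 the LFCs were 1.02 and 1.10 (adjusted p = 0.989 and 0.730 by edgeR), so the size, and at 120 mg/kg the direction, depended on single mice.

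Prostaglandin E synthase, encoded by Ptges, works downstream of the cyclooxygenases and makes prostaglandin E2, the main renal prostaglandin. In Control mice Ptges was at 21.5, 17.4, 66.6, 21.5 and 15.5 CPM. In EIC mice it was at 13.4, 16.4, 13.0, 15.7 and 19.3 CPM. Control 653 stood far above the other 4 Control mice, which overlapped EIC. The group means were 28.5 ± 21.5 and 15.6 ± 2.55 CPM (SD, n = 5). The LFC of −0.86 (SE 0.30, 95% interval −1.28 to −0.02, adjusted p = 0.181 by edgeR) became −0.29 without Control 653 (adjusted p = 0.464 by edgeR).

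The 2 sparsentan groups held 15.9 ± 4.92 and 15.2 ± 2.46 CPM of Ptges (SD, n = 5). Their LFCs against EIC were 0.03 (95% interval −0.63 to 0.63) and −0.03 (−0.67 to 0.60). Against Control they were −0.84 (adjusted p = 0.282) and −0.90 (adjusted p = 0.131 by edgeR), and without Control 653 they were −0.27 and −0.33. The lower Ptges of all 3 EIC-injected groups thus rested largely on 1 Control kidney, the one with the most medulla, urothelium and fat marker RNA.

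Constitutive cyclooxygenase-1, encoded by Ptgs1, is known from the collecting duct, interstitium and vessels. Its level in Control mice was 17.9, 19.98, 38.9, 20.9 and 15.8 CPM. In EIC mice it was 20.8, 20.5, 23.6, 19.9 and 19.8 CPM. Apart from Control 653 and EIC + S120 77 (25.2 CPM), the 20 mice lay between 15.8 and 23.6 CPM. The LFC of EIC vs. Control was −0.11 (95% interval −0.38 to 0.30) with all libraries and 0.16 without Control 653. Against EIC, Ptgs1 had an LFC of −0.11 at 60 mg/kg (95% interval −0.45 to 0.23) and −0.07 at 120 mg/kg (−0.42 to 0.26), the latter −0.17 without mouse 77.

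**Figure D2:**
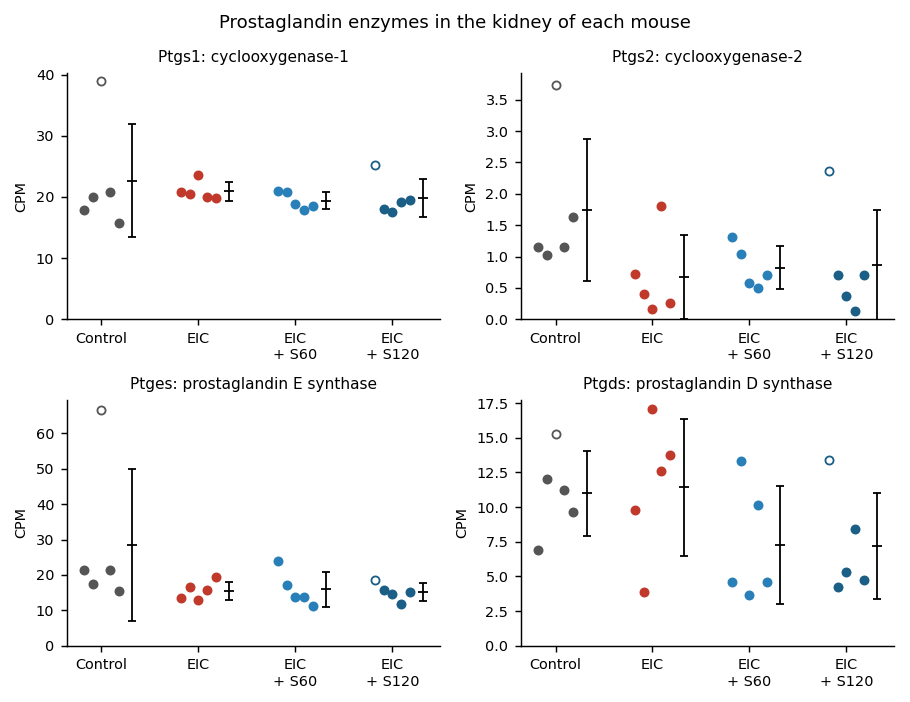
CPM (y axis, linear from 0) of Ptgs1, Ptgs2, Ptges and Ptgds in each of the 20 mice, by group. Each circle is 1 mouse, bars beside them are the mean ± SD of 5 mice (cut at 0 for Ptgs2), and open circles mark Control 653 and EIC + S120 77. Control 653 is the highest mouse for Ptgs1 (38.9 CPM), Ptgs2 (3.73 CPM) and Ptges (66.6 CPM), and the other 4 Control mice overlap the EIC groups for Ptgs1 and Ptges.

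Ptgs2 and Ptges also varied together from mouse to mouse. Over the 20 mice the Pearson r of their log2 CPM was 0.65 (permutation p = 0.00079, adjusted over 6 gene pairs p = 0.00474) and Spearman's rho was 0.61 (adjusted permutation p = 0.027). After centring on the group means r was 0.53 (adjusted permutation p = 0.0314). Without the 2 mice farthest from the median of Ptgs2, Control 653 and EIC + S120 80, r was 0.42 (permutation p = 0.0808), so the relation rested in part on those mice. The other 5 pairs did not pass the adjusted threshold: Ptgs2 had r = −0.04 with Nos1 and −0.29 with Ren1, Nos1 had 0.39 with Ren1 (adjusted permutation p = 0.270), Npr1 had 0.19 with Npr3, and Klk1 had −0.17 with Bdkrb2. Centred on the group means, Nos1 with Ren1 had r = 0.64 (adjusted permutation p = 0.0575), and uncentred without Control 653 and EIC + S60 75 it had r = 0.10.

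The DNA before the start of Ptgs2 and Ptges is shown because the levels of these genes were correlated, with that of Ptgs1, the other cyclooxygenase, beside it. These are the 250 bases before the RefSeq transcript start (GRCm38.p6), 5′ to 3′ on the strand of the gene, at chr2:36230176-36230425 (plus strand) for Ptgs1, chr1:150099781-150100030 (plus strand) for Ptgs2 and chr2:30903298-30903547 (minus strand) for Ptges, and capitals mark the GC box GGGCGG, searched on both strands. The RefSeq start of Ptges lies inside the longer GENCODE gene.
Ptgs1: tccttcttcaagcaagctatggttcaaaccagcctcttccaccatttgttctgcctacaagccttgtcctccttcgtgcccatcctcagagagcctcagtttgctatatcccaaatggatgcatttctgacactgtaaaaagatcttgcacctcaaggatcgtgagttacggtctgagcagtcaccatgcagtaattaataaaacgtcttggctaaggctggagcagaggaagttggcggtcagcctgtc
Ptgs2: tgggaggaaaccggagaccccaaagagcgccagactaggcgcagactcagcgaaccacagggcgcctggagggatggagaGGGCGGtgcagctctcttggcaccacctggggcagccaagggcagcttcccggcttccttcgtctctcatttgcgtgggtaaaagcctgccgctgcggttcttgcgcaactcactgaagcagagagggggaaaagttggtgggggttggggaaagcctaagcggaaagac
Ptges: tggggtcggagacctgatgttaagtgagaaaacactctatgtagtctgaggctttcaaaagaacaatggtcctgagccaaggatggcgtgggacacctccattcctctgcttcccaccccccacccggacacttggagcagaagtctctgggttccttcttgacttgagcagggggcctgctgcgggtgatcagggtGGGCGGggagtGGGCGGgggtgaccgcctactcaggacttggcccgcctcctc
The window of Ptgs2 held 1 GC box and that of Ptges 2, with none in that of Ptgs1, where 32.7% of 32851 windows of that length hold one. No window of the 3 genes held TATAAA (12.4% of windows), the Egr1 motif GCGGGGGCG or GCGTGGGCG (3.06%), the cAMP response element TGACGTCA (1.55%) or the E-box CACGTG (6.02%). The GC content was 48% for Ptgs1, 61.6% for Ptgs2 and 59.6% for Ptges. Only these windows were searched, so motifs farther upstream or after the annotated start would not be seen. These are matches of letters only, and no binding was measured in these mice.

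Lipocalin-type prostaglandin D synthase, encoded by Ptgds, makes prostaglandin D2. In Control mice Ptgds was at 6.90, 12, 15.2, 11.2 and 9.67 CPM. In EIC mice it was at 9.80, 3.89, 17.1, 12.6 and 13.8 CPM. The groups spread over the same range, and the LFC was 0.06 (95% interval −0.95 to 0.84), or 0.20 without Control 653. In EIC + S60 mice it was at 4.59, 13.3, 3.66, 10.1 and 4.60 CPM, and in EIC + S120 mice at 13.4, 4.23, 5.32, 8.45 and 4.70 CPM. In each sparsentan group 3 mice lay between 3.66 and 5.32 CPM, where only EIC 66 of the 10 untreated mice lay.

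The LFC of Ptgds against EIC was −0.66 at both doses, with 95% intervals of −1.57 to 0.21 and −1.53 to 0.25 and adjusted p = 0.847 and 0.692 by edgeR. The pooled sparsentan groups gave −0.66 (95% interval −1.43 to 0.11, unadjusted p = 0.0789 and adjusted p = 0.717 by edgeR). Without EIC + S120 77 the LFC at 120 mg/kg was −1.01 (unadjusted p = 0.0293, adjusted p = 0.340 by edgeR). None of these passed the adjusted threshold.

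Ptgds followed the medulla markers closely. Across the 20 mice its log2 CPM had r = 0.82 and rho = 0.95 with the log2 sum of 7 medulla markers (adjusted over 9 genes, permutation p = 9e-05 for both, the smallest these permutations can give). It was 0.84 after centring on the group means and 0.88 without Control 653 and EIC 66, the mice farthest from the median sum (adjusted permutation p = 9e-05 and 0.00018). Ptgs1 had r = 0.81 and rho = 0.58 (adjusted permutation p = 0.00072 and 0.0251), and r = 0.70 without those 2 mice (0.00486). Npr1 had r = 0.63 (adjusted permutation p = 0.00708), which was 0.43 without them (0.15). For Ptges r was 0.58 but rho only 0.17, and r was 0.04 without the 2 mice, so that relation rested on them. Klk1, a gene of the cortical connecting tubule, ran the other way with r = −0.45 (adjusted permutation p = 0.0721) and rho = −0.56 (0.0275). These relations were examined after the values had been seen.

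**Figure D3:**
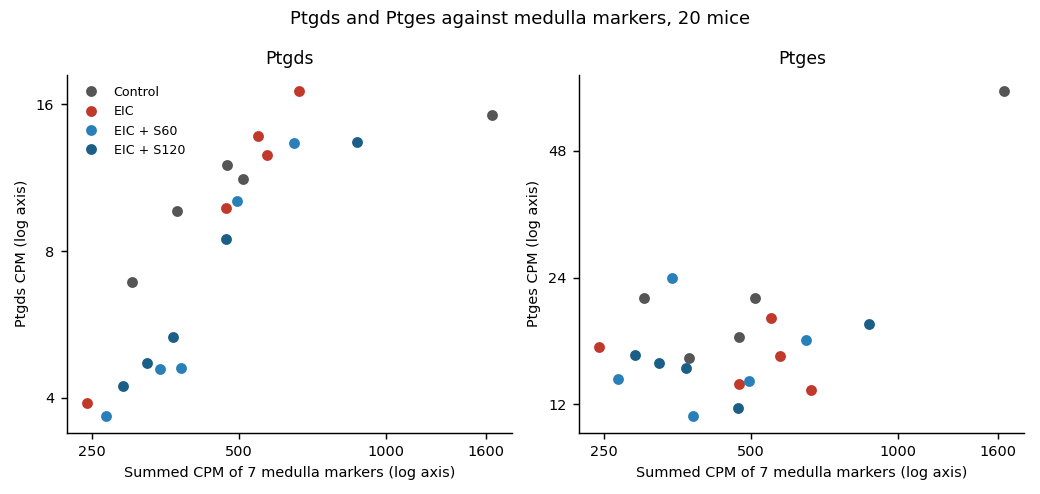
CPM of Ptgds (left) and Ptges (right) on the y axis against the summed CPM of 7 medulla markers on the x axis, both log axes, with 1 point per mouse and color by group. Ptgds rises with the marker sum throughout (rho 0.95), whereas for Ptges rho is 0.17 and Control 653 lies apart at 66.6 CPM.

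The median medulla sum was 473 CPM in Control, 549 in EIC, 381 in EIC + S60 and 368 in EIC + S120, with ranges of 302 to 1648, 245 to 664, 267 to 647 and 290 to 873. None of the 7 markers differed between groups in any comparison at an adjusted p under 0.05 by edgeR. With the sum as a covariate in the edgeR fit, the LFC of Ptgds was −0.47 at 60 mg/kg (unadjusted p = 0.04998, adjusted p = 0.723) and −0.54 at 120 mg/kg (unadjusted p = 0.0283, adjusted p = 0.429) against EIC. The LFCs of EIC vs. Control in that fit were −0.61 for Ptges (adjusted p = 0.212 by edgeR), −1.09 for Ptgs2 (adjusted p = 0.235 by edgeR) and 0.01 for Ptgs1.

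**Figure D4:**
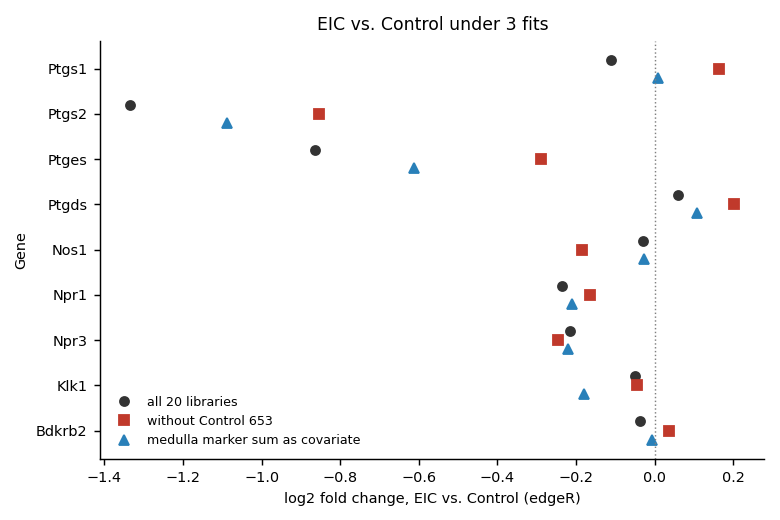
Log2 fold change (edgeR, x axis, log2 scale) of each of the 9 genes in EIC vs. Control under 3 fits: all 20 libraries (circles), without Control 653 (squares) and with the medulla marker sum as a covariate (triangles). Ptges moves from −0.86 to −0.29 without Control 653, Ptgs2 from −1.33 to −0.85, and Ptgs1 from −0.11 to 0.16, and the other 6 genes move less.

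Neuronal nitric oxide synthase, encoded by Nos1, is the isoform of the macula densa. Group means of Nos1 were 2.58 ± 1.08 CPM in Control, 2.55 ± 0.533 in EIC, 2.72 ± 0.855 at 60 mg/kg and 2.81 ± 0.611 at 120 mg/kg (SD, n = 5). The highest and lowest group means differed 1.10-fold, less than the spread within any group, and the 20 mice ranged from 1.37 to 4.03 CPM. The LFC was −0.03 in EIC vs. Control (95% interval −0.47 to 0.59), 0.10 in EIC + S60 vs. EIC (−0.48 to 0.58) and 0.14 in EIC + S120 vs. EIC (−0.41 to 0.66). On the fold scale the ends of these 3 intervals lie between 0.718 and 1.58. Without Control 653 the LFC of Nos1 in EIC vs. Control was −0.18.

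Of 5 other macula densa markers tested, 1 passed. It did so in EIC, EIC + S60 and EIC + S120 vs. Control, where 2.97%, 1.29% and 5.55% of all genes did. The vasopressin receptor gene Avpr1a was lower than in Control (11.7 ± 2.22 CPM) in EIC (8.15 ± 1.61 CPM, LFC −0.52, adjusted p = 0.0331 by edgeR). It was also lower than in Control in EIC + S60 (8.08 CPM, adjusted p = 0.0448) and EIC + S120 (7.0 CPM, adjusted p = 0.00154 by edgeR), and all mice of both sparsentan groups lay below all Control mice. Whether the calls for Avpr1a hold under the other settings or with a library left out was not tested. The other 4 markers tested (Pappa2, Robo2, Tmem158 and Slc12a1) passed in no comparison. For Robo2 all EIC + S120 mice lay above all EIC mice (means 23.2 and 19.1 CPM, adjusted p = 0.650 by edgeR). The groups of that comparison were separated for 1.2% of all genes. Pappa2 had means of 5.64 CPM in Control, 5.02 in EIC, 8.24 in EIC + S60 and 8.65 in EIC + S120, with an LFC of 0.76 for both sparsentan groups vs. EIC (95% interval 0.30 to 1.23, adjusted p = 0.462 by edgeR).

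Renin, whose release macula densa signals are classically held to drive, was measured as Ren1 RNA in the same libraries. Whether those signals set its level here was not tested. Ren1 was at 229.6, 139, 55.6, 163 and 97.3 CPM in Control and between 136 and 231 CPM in EIC. In the sparsentan groups it was between 440 and 837 CPM at 60 mg/kg and between 464 and 862 CPM at 120 mg/kg. Every sparsentan-treated mouse lay above every untreated one. The LFC was 2.29 and 2.35 against Control (adjusted p = 0.000652 and 0.000177 by edgeR), and 1.87 at 120 mg/kg against EIC (SE 0.31, adjusted p = 0.0261 by edgeR), a call lost in 7 of the 20 fits that left out 1 library (adjusted p up to 0.105). In EIC + S60 vs. EIC it was 1.81 with an unadjusted p of 1.34e-05 but an adjusted p of 0.187 by edgeR, and an adjusted p of 6.56e-06 by DESeq2, and without Control 653 edgeR gave an adjusted p of 0.0148. In the same mice neither Ptgs2 nor Nos1 passed the threshold against EIC at either dose.

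Receptor genes of angiotensin II and endothelin were detected as well, and none of those tested passed the threshold in any comparison. The endothelin type B receptor among them is not a stated target of sparsentan. Agtr1a, the main angiotensin II type 1 receptor gene of the mouse kidney, had means of 50.9 CPM in Control and 42.4 in EIC, and of 51.0 and 45.5 CPM with 60 and 120 mg/kg. Ednra, the endothelin type A receptor gene, had means of 3.54, 3.95, 5.19 and 5.77 CPM in the same order, with an LFC of 0.69 in EIC + S120 vs. Control (adjusted p = 0.0857 by edgeR). Ednrb, the type B receptor gene, had 39.4, 55.4, 49.2 and 51.6 CPM in that order, with an LFC of 0.49 in EIC vs. Control (adjusted p = 0.0876 by edgeR). Agtr1b was not found in the count tables. Of 13 genes listed as these receptors and their ligands, 10 were in the tables and tested. Ren1 was the only one called, in 3 of the 7 comparisons.

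The guanylyl cyclase receptor of atrial natriuretic peptide is encoded by Npr1. In Control mice Npr1 was at 30.8, 25.0, 34.5, 28.0 and 25.1 CPM. In EIC mice it was at 19.1, 17.6, 34.5, 26.8 and 23.7 CPM. The EIC mice spread from below the Control range to its upper end, and the LFC was −0.24 (95% interval −0.58 to 0.05). In EIC + S60 mice it was at 24, 25.6, 23.9, 24 and 24.9 CPM, the narrowest group, and in EIC + S120 mice at 29.9, 19.9, 21.0, 18.3 and 18.8 CPM. Of the EIC + S120 mice, 4 lay below every Control mouse and mouse 77 lay within the Control range.

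The LFC of Npr1 in EIC + S120 vs. Control was −0.41 (SE 0.15, 95% interval −0.74 to −0.10, unadjusted p = 0.0163, adjusted p = 0.137 by edgeR). Without mouse 77 it was −0.56 and passed the threshold (adjusted p = 0.0214 by edgeR), as it did without Control 653 and mouse 77 together (LFC −0.49, adjusted p = 0.0479 by edgeR). Without Control 653 alone it was −0.34 (adjusted p = 0.273 by edgeR), and with the medulla covariate −0.34 (adjusted p = 0.0922 by edgeR). The call for Npr1 thus depended on which mice were kept. Against EIC the LFC was 0.01 at 60 mg/kg (95% interval −0.27 to 0.37) and −0.17 at 120 mg/kg (−0.48 to 0.16), the latter −0.32 without mouse 77 (unadjusted p = 0.0398, adjusted p = 0.376 by edgeR).

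The clearance receptor Npr3 takes natriuretic peptides out of the circulation and is found in podocytes and vessels. In Control mice Npr3 was at 20.5, 16, 17.7, 18.7 and 24.6 CPM. In EIC mice it was at 13.3, 14.7, 16.4, 25.1 and 14.2 CPM. Apart from EIC 68, the EIC mice lay at the lower end of the Control range or below it. In EIC + S60 mice it was at 19.5, 18.6, 25.2, 22.9 and 25.3 CPM, and in EIC + S120 mice at 18.2, 24.1, 20.4, 16.1 and 17.2 CPM. All EIC + S60 mice lay above 4 of the 5 EIC mice.

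Npr3 had an LFC of 0.42 in EIC + S60 vs. EIC (SE 0.15, 95% interval 0.12 to 0.76, unadjusted p = 0.0160, adjusted p = 0.754 by edgeR). For both sparsentan groups vs. EIC it was 0.31 (0.05 to 0.61, adjusted p = 0.675), and in EIC + S120 vs. EIC it was 0.20 (−0.10 to 0.54, adjusted p = 0.762 by edgeR). Without EIC 68 the LFC at 60 mg/kg was 0.60, with an unadjusted p of 0.000179 and an adjusted p of 0.339 by edgeR, still short of the threshold, and at 120 mg/kg it was 0.39 (adjusted p = 0.424 by edgeR). In EIC vs. Control it was −0.21 (95% interval −0.56 to 0.08) with all mice and −0.39 without EIC 68 (adjusted p = 0.149 by edgeR). The doses differed by −0.22 for Npr3 (EIC + S120 vs. EIC + S60, 95% interval −0.54 to 0.10, adjusted p = 0.804 by edgeR).

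Tissue kallikrein, encoded by Klk1, is made in the connecting tubule and was the most abundant of the 9 transcripts. Group means of Klk1 were 1144 ± 221 CPM in Control, 1105 ± 448 in EIC, 1037 ± 216 at 60 mg/kg and 1080.5 ± 292 at 120 mg/kg (SD, n = 5). EIC held both the lowest mouse (670.2 CPM) and the highest (1790 CPM). The LFC was −0.05 in EIC vs. Control (95% interval −0.63 to 0.39), −0.09 in EIC + S60 vs. EIC (−0.54 to 0.48) and −0.03 in EIC + S120 vs. EIC (−0.50 to 0.52). Klk1 belongs to a cluster of related genes, and 257 of the 1072 stretches of 50 bases in its exons (23.97%) also occur in other genes, so its count is uncertain.

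The kinin B2 receptor gene Bdkrb2 was close to the limit of detection. Its counts were 3 to 20 per library, with 7 of 20 libraries at 10 or more, and its group means were 0.488 CPM in Control, 0.449 in EIC, 0.434 at 60 mg/kg and 0.470 at 120 mg/kg. The LFC of EIC vs. Control was −0.04 (95% interval −0.77 to 0.64). That interval, from 0.584-fold to 1.56-fold, leaves room for changes of that size in either direction.

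**Figure D5:**
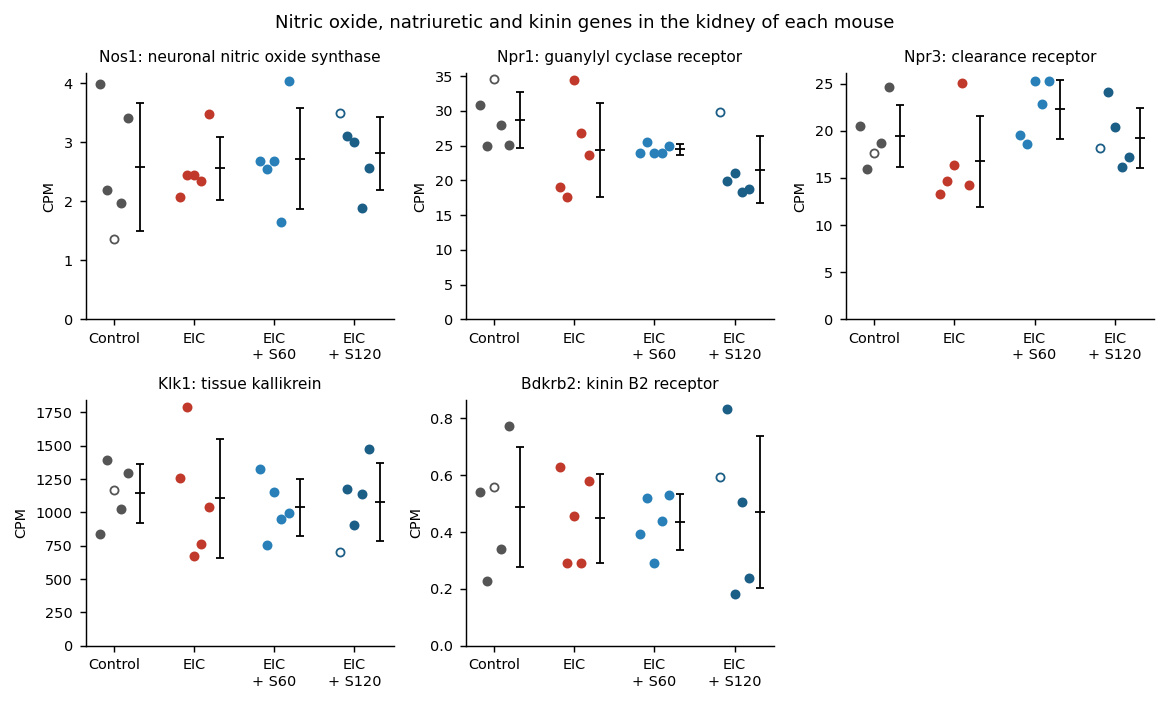
CPM (y axis, linear from 0) of Nos1, Npr1, Npr3, Klk1 and Bdkrb2 in each of the 20 mice, by group. Each circle is 1 mouse, bars beside them are the mean ± SD of 5 mice, and open circles mark Control 653 and EIC + S120 77. The groups overlap for all 5 genes, 4 of 5 EIC + S120 mice lie below all Control mice for Npr1, and EIC 68 (25.1 CPM) stands above the other EIC mice for Npr3.

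Per kilobase of exon, the scale on which genes can be ranked against each other, Klk1 had a mean level of 1014 CPM per kb over the 20 mice. Ptgds (5.60 CPM per kb), Ptgs1 (5.34), Npr1 (5.18) and Ptges (4.78) followed at similar levels, and their order changed between mice. Npr3 was at 2.07 CPM per kb. Nos1 (0.239), Ptgs2 (0.224) and Bdkrb2 (0.121 CPM per kb) were the lowest, so that per length Nos1 and Ptgs2 both lay far below Ptgs1 in whole kidney tissue. On the same scale Ren1 was at 82.6 CPM per kb in Control, 115 in EIC, 405 at 60 mg/kg and 421 at 120 mg/kg.

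The genes most like each member over the 20 libraries were found by Pearson r of log2 CPM among 13989 genes. Ptgs1 was followed most closely by Rhou (r = 0.94), Serinc3 (0.94) and Bmpr1b (0.92), Ptgs2 by Napepld (0.78), Ino80dos (0.76) and Tnfrsf19 (0.75), and Ptges by Wfs1 (0.92), Tubb2b (0.90) and Endod1 (0.88). For Ptgds they were Sim2 (0.94), Ckb (0.94) and Gm13111 (0.92), and for Nos1 Gdf11 (0.78), Adamts5 (0.78) and Cln6 (0.74). The nearest genes of Npr1 were Dnm2 (0.91), Gas7 (0.90) and Igfbp5 (0.89), and those of Npr3 were Szrd1 (0.78), Tmem170b (0.74) and Ksr2 (0.73). Klk1 was nearest to Pnpt1 (0.91), Malrd1 (0.91) and Trpv5 (0.90), the last a calcium channel of the connecting tubule, and Bdkrb2 to Kdm6a (0.75), Chd6 (0.73) and Nynrin (0.73). These libraries share tissue make-up and scaling, and the highest of so many r values is high by selection.

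Of 24 other genes of prostaglandin synthesis, breakdown and reception that were tested, 3 passed in EIC + S120 vs. Control, where 5.55% of all genes did, and none in the other 6 comparisons. The secreted phospholipase gene Pla2g5, which frees fatty acids from membranes, was lower (23.2 ± 6.75 to 9.24 ± 4.43 CPM, LFC −1.33, SE 0.28, adjusted p = 0.0063 by edgeR). Thromboxane synthase, encoded by Tbxas1, was at 20.2, 25.1, 18.7, 19.5 and 25.1 CPM in Control and at 12.9, 16.1, 13.9, 14.2 and 13.9 CPM in EIC + S120. The 2 groups of Tbxas1 values did not overlap (LFC −0.61, SE 0.10, adjusted p = 0.000854 by edgeR). Prostaglandin reductase 2, encoded by Ptgr2, was higher (179 ± 10.4 to 214 ± 12.2 CPM, LFC 0.26, adjusted p = 0.0324 by edgeR). The median LFC of the list in this comparison was −0.05, against −0.01 over all genes. Pla2g5 lost the call when only the 10 libraries compared were fitted (adjusted p = 0.0719 by edgeR), and Ptgr2 lost it without the 2 deepest Control libraries (adjusted p = 0.0755 by edgeR) and in 7 of the 20 fits that left out 1 library.

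Against EIC these genes did not pass. In EIC + S120 vs. EIC the LFC was −0.89 for Pla2g5 (95% interval −1.59 to −0.42, adjusted p = 0.350) and −0.34 for Tbxas1 (−0.54 to −0.13, adjusted p = 0.343 by edgeR). In EIC vs. Control it was −0.44 for Pla2g5 and −0.28 for Tbxas1 (adjusted p = 0.422 and 0.15 by edgeR). From Control and EIC to the lower and the higher dose, mean Pla2g5 was thus 23.2, 17.2, 13.8 and 9.24 CPM, and mean Tbxas1 was 21.7, 17.9, 19.2 and 14.2 CPM.

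Among 25 other nitric oxide and cGMP genes, 1 passed, in EIC + S120 vs. Control, a share near the 5.55% of all genes. The calcium-dependent phosphodiesterase gene Pde1a, whose product breaks down cyclic nucleotides, was lower (134 ± 11 to 104 ± 13 CPM, LFC −0.36, SE 0.08, adjusted p = 0.00959 by edgeR), with all 5 mice below all Control mice. The median LFC of the list there was 0.10, against −0.01 over all genes. Of 8 other natriuretic peptide and guanylin genes tested, 1 passed in that comparison, against the same 5.55% of all genes, and none elsewhere. Guca2b, the gene of uroguanylin, a salt-losing peptide, was higher (243 ± 30.3 to 331 ± 57.0 CPM, LFC 0.45, SE 0.12, adjusted p = 0.0368 by edgeR), a call lost in 7 of the 20 fits that left out 1 library and in the fit of only the libraries compared (adjusted p = 0.0593 by edgeR).

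None of 8 other kallikrein-kinin genes passed in any comparison by edgeR. The smallest p was that of Cpn1, a carboxypeptidase N subunit that trims kinins, with an LFC of 0.37 in EIC + S60 vs. Control (unadjusted p = 0.00537, adjusted p = 0.149 by edgeR). The Klk1 paralogs Klk1b1, Klk1b3, Klk1b5, Klk1b8, Klk1b9, Klk1b11, Klk1b21, Klk1b22, Klk1b24 and Klk1b27 were listed with group means of 0.0231 to 3.71 CPM. Of these, 6 were tested and none passed, the smallest unadjusted p being 0.0514 for Klk1b8 in EIC + S60 vs. EIC (LFC −0.91, adjusted p = 0.815 by edgeR).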

How the data were processed

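Kidney poly(A) RNA of 20 mice was sequenced, 1 library per mouse and 5 mice per group, grouped by the sample labels. The authors deposited raw counts per gene. Per the submitters' processing notes they used Trimmomatic 0.36, STAR 2.5.2b and featureCounts of Subread 1.5.2 on GRCm38 (annotation and strand setting: not given in the sources used here). Per the labels each mouse has a number, but no cage, harvest time or batch is named.

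Testing was limited to 13990 of 15780 genes, those reaching 10 counts in 5 or more libraries. These were scaled by TMM and fitted by edgeR 4.0.16 (R 4.3.3) with 1 coefficient per group and robust quasi-likelihood tests, two-sided, and p-values were adjusted by Benjamini-Hochberg within each of 7 comparisons over the genes tested. A gene was called at an adjusted p under 0.05. LFCs are those of edgeR, while SEs and 95% intervals were taken from a limma-trend fit (limma 3.58.1) to log2 CPM (prior count 2). Correlations used log2 CPM and 100000 permutations, within groups for centred values, adjusted over 6 gene pairs or over 9 genes. Total counts were 12662345 to 38651781 in Control, 17403376 to 19635495 in EIC, 15220943 to 27948916 in EIC + S60 and 15915650 to 18180183 in EIC + S120. The LFC of a gene with few reads, such as Ptgs2 or Bdkrb2, is accordingly less certain.

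The text names the 9 genes, for each the 3 genes most like it, from each of 6 pathway lists the called genes or the one with the smallest p, Agtr1a, Agtr1b, Ednra, Ednrb, Ren1 and the listed Klk1 paralogs. Marker genes named beside them were chosen after their values were seen. The 9 genes and all lists were chosen with earlier results of these data known. The steps were tested on simulated data. Gene lengths and positions are from GENCODE on GRCm38 and promoters from RefSeq on GRCm38.p6, which held all 9 genes. Alternatives were RLE and upper-quartile scaling, DESeq2 1.42.0, limma-voom, no filter on low counts, a fit of only the libraries compared, a fit without the 2 deepest Control libraries, and each library left out in turn. Leaving out Control 653 with EIC + S120 77, the medulla covariate and the medulla correlations were added after the data had been seen.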

Additional observations from a re-analysis of the deposited data

Results flagged for a closer look

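For each of the 9 genes and Ren1, the highest and lowest mouse of each group was compared with the rest by its gap to the nearest mouse over the range of the group (Dixon's ratio, critical value 0.71 for 5 mice). Of 40 groups tested, 9 stood out in this way, where chance gives about 1 in 20 for independent sets of normally distributed values. The genes share their mice and the CPM were not log-transformed, so the 9 are a description and no test of an excess. All 9 were high values.

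Control 653 stood out for Ptgs1 (ratio 0.78, 38.9 CPM against 20.9 in the next mouse), Ptgs2 (0.78, 3.73 against 1.62 CPM) and Ptges (0.882, 66.6 against 21.5 CPM). The same library had a medulla marker sum of 1648 CPM against a Control median of 473, a sum of 1997 against a median of 1034 CPM for principal cell markers, and 38.4 against 2.04 CPM for urothelium. EIC + S120 77 stood out for Ptgs1 (0.741, 25.2 against 19.5 CPM), Ptgs2 (0.738, 2.37 against 0.715 CPM) and Npr1 (0.763, 29.9 against 21.0 CPM), with a medulla sum of 873 against a group median of 368 CPM. The part of tissue make-up in these values was not tested mouse by mouse, and the group comparisons with the medulla covariate are given in the report.

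EIC 67 stood out for Ptgs1 (0.742, 23.6 against 20.8 CPM), with the highest medulla sum of its group (664 CPM). EIC 69 stood out for Nos1 (0.735, 3.47 against 2.44 CPM). EIC 68 stood out for Npr3 (0.741, 25.1 against 16.4 CPM) and was also the highest EIC mouse for Ptgs2 (1.81 CPM).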

How the results depend on the processing

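The number of the 9 genes called was 0 in all 7 comparisons by edgeR with TMM, RLE or upper-quartile scaling, by DESeq2 and limma-voom, without a filter, with only the libraries compared, without the 2 deepest Control libraries and with the medulla covariate. It was 1, Npr1 in EIC + S120 vs. Control, without Control 653 and EIC + S120 77. With 1 library left out it ranged from 0 to 1 in that comparison, the 1 being the fit without EIC + S120 77, and was 0 in the other 6 comparisons in all 20 fits. The correlation of Ptgs2 with Ptges was 0.42 without the 2 farthest mice (permutation p = 0.0808). Among 567 LFCs under the other settings 40 changed sign and among 1260 with 1 library left out 102 did, the largest of them at 0.36 in size with all libraries, and none of these was a called value. DESeq2 gave no adjusted p for Bdkrb2 in 2 comparisons.

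The number of all genes called moved more. In EIC vs. Control it was 416 by edgeR, 704 by DESeq2, 146 with only the libraries compared, 124 without the 2 deepest Control libraries and 800 with the medulla covariate. In EIC + S60 vs. Control it was 180 by edgeR, 359 by DESeq2, 119 without those Control libraries and 276 with the covariate, and in EIC + S120 vs. Control 777 by edgeR, 1122 by DESeq2 and 518 with only the libraries compared. Against EIC, DESeq2 called 5 genes at 60 mg/kg, 65 at 120 mg/kg and 27 for the pooled groups, where edgeR called 0, 8 and 0. The 8 genes were 2 to 17 under the other planned settings and the covariate, and 52 without Control 653 and EIC + S120 77. Between the doses DESeq2 called 81 genes where edgeR called 9, the covariate fit 52 and the fit without those 2 mice 87. The cause of these differences was not tested.

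Ren1 in EIC + S120 vs. EIC lost its call in 7 of the 20 fits that left out 1 library (adjusted p up to 0.105 by edgeR). No paired analysis was possible because the mouse numbers differ between all groups. Ptgs2 and Bdkrb2 had few reads, which limits the precision of their LFCs.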
